A study of Homo sapiens with 93 samples.

Results

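The genes described here are 9 neighbours on the long arm of chromosome 17, listed from the low to the high coordinate: MED1, CDK12, STARD3, PGAP3, MIEN1, GRB7, GSDMB, ORMDL3 and MED24. They were chosen by a list of Ensembl identifiers that surrounds ORMDL3 and GSDMB, and all 9 were found among the 14000 features of the deposited count table. The table holds H3K36me3, trimethylation of a lysine of histone H3, over genes of 93 human lymphoblastoid lines, which are B cells that Epstein-Barr virus keeps dividing in culture. The assay was CUT&Tag, in which an antibody brings a transposase to the mark and the DNA that it cuts is sequenced. No treatment, genotype or time distinguishes the libraries in the labels, which form 1 group with 1 library per line. Lines were grown in 4 batches, and the labels do not say which line was in which, so culture batch, line and library cannot be told apart.

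H3K36me3 is written over gene bodies by SETD2, which travels with elongating RNA polymerase II, and the mark is therefore found over transcribed genes. The region around ORMDL3 and GSDMB is known from genetic studies of childhood asthma, in which common variants go with the expression of both genes in blood cells. ORMDL3 is a membrane protein of the endoplasmic reticulum that restrains serine palmitoyltransferase, the enzyme that starts sphingolipid synthesis. GSDMB is a gasdermin, one of a family of proteins that form pores in membranes during pyroptosis.

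Library totals had a median of 14883653 counts and lay between 2842955 and 24325746. CPM below is the count scaled to the library total after TMM normalisation. A stretch of the table where counts drop at a row that differs between libraries, after row 1900 and up to row 3200, does not hold the 9 genes. They stand in rows 5935 to 5951, within the block that follows that stretch, after row 3200 and up to row 7700. In this block 54.04% of counts were even numbers, against 50.14% in the first 1900 rows. Of the 837 counts of the 9 genes, 51.97% were even. Whether counts in this block were altered in some libraries, and what that would do to CPM and correlations, was not tested. B cell markers and those of other cell types could not be checked, because the identifiers of other features are not paired with names in the sources used here.

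In RefSeq (GRCh38.p14, the same assembly as the hg38 of the submitters' notes) the stretch runs over 650.1 kb, chr17:39404285-40054408. It holds 20 protein-coding genes, of which 9 are the genes described here and 11 are not. The table has 17 rows from MED1 to MED24, so 8 rows in between belong to other features. GSDMB (ENSG00000073605.18, chr17:39904595-39918635) and ORMDL3 (ENSG00000172057.10, chr17:39921041-39927601) stand in adjacent rows and are 2405 bases apart. MED1 (ENSG00000125686.12, chr17:39404285-39451263) and CDK12 (ENSG00000167258.15, chr17:39461486-39567559) are also in adjacent rows, 10222 bases apart. The remaining adjacent pair, MIEN1 (ENSG00000141741.12, chr17:39728510-39730532) and GRB7 (ENSG00000141738.14, chr17:39737938-39747285), is 7405 bases apart. STARD3 (ENSG00000131748.16, chr17:39637144-39664201), PGAP3 (ENSG00000161395.14, chr17:39671122-39688057) and MED24 (ENSG00000008838.20, chr17:40019104-40054408) have no other named gene in the next row. No RefSeq span of a named gene overlaps that of another, but the sources used here do not give the interval that was counted, so whether close neighbours share reads was not tested.

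ORMDL3 carried the most H3K36me3 per kb of the 9 genes and GRB7 the least. ORMDL3 had a level of 1.90, 3.57 and 5.63 CPM per kb in its lowest, median and highest line. MED1, a subunit of the Mediator complex that links transcription factors to RNA polymerase II, came next with a median level of 2.92 CPM per kb. MIEN1, a small membrane-anchored protein linked to cell migration, followed with 2.46, and MED24, another Mediator subunit, with 2.45. CDK12, a kinase that phosphorylates RNA polymerase II during elongation, had 2.13 CPM per kb, and GSDMB had 1.78. STARD3, which moves cholesterol at late endosomes, had 1.67 CPM per kb. PGAP3, which remodels the lipid of GPI anchors, had 1.64. GRB7, an adaptor of receptor tyrosine kinases, had 1.03 CPM per kb.

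Neighbours in this order overlapped widely, with 1 exception. PGAP3 was above GRB7 in 93 of 93 lines, by 0.66 ± 0.28 on the log2 scale (SD, n = 93). ORMDL3 was above MED1 in 75 of 93 lines, by 0.27 ± 0.35 (log2, SD), a difference smaller than its spread between lines. MIEN1 was above MED24 in 44 of 93 lines, and STARD3 above PGAP3 in 58 of 93. The length used is the RefSeq gene span, which stands in for the unknown counted interval, and the order holds only as far as the spans match it.

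**Figure D1:**
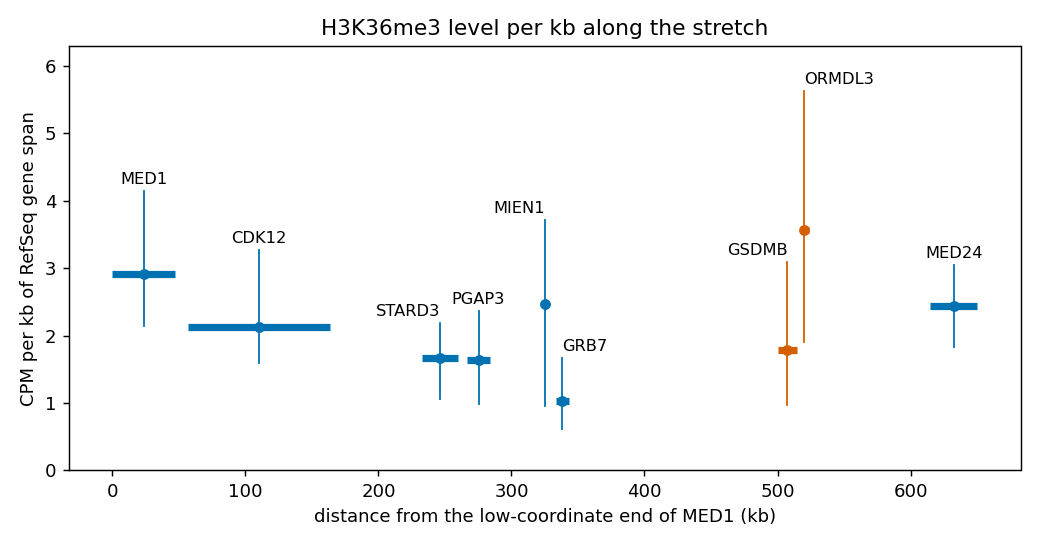
H3K36me3 level (CPM per kb of RefSeq gene span) against distance from the low-coordinate end of MED1 in kb. Thick bars span each gene at its median over 93 lines and thin lines run from the lowest to the highest line; GSDMB and ORMDL3, in orange, had median levels of 1.78 and 3.57 CPM per kb although they are next to each other.

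In CPM, GSDMB and ORMDL3 had a coefficient of variation between lines close to that of the median feature. GSDMB had 49, 344 and 813 counts in its lowest, median and highest library, and 13.6, 24.98 and 43.3 CPM. ORMDL3 had 35, 342 and 843 counts, and 12.5, 23.4 and 36.97 CPM. The highest line stood 3.20-fold above the lowest for GSDMB and 2.96-fold for ORMDL3. Most lines lay close to the middle, since 2 lines were more than 1.5-fold above the median of GSDMB and 6 more than 1.5-fold below it, and for ORMDL3 these numbers were 1 and 6. The coefficient of variation was 0.229 for GSDMB and 0.206 for ORMDL3, against a median of 0.205 over all features tested.

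The 2 Mediator subunits and CDK12 had smaller coefficients of variation. MED24 had 64.9, 86.3 and 108 CPM in its lowest, median and highest line, with a coefficient of variation of 0.107. MED1 had 100.9, 137 and 194 CPM, and CDK12 had 169, 226 and 347 CPM. Their coefficients of variation were 0.137 and 0.136, and those of STARD3 (28.4, 45.3 and 59.1 CPM) and PGAP3 (16.6, 27.8 and 40.1 CPM) were 0.146 and 0.136. MIEN1 and GRB7 had few counts, 12 to 168 and 20 to 319 per library, and coefficients of variation of 0.230 and 0.211. Counting error alone would give 41.5% of the residual variance of MIEN1 and 50.2% of that of GRB7, against 7.94% for GSDMB and 12.2% for ORMDL3.

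**Figure D2:**
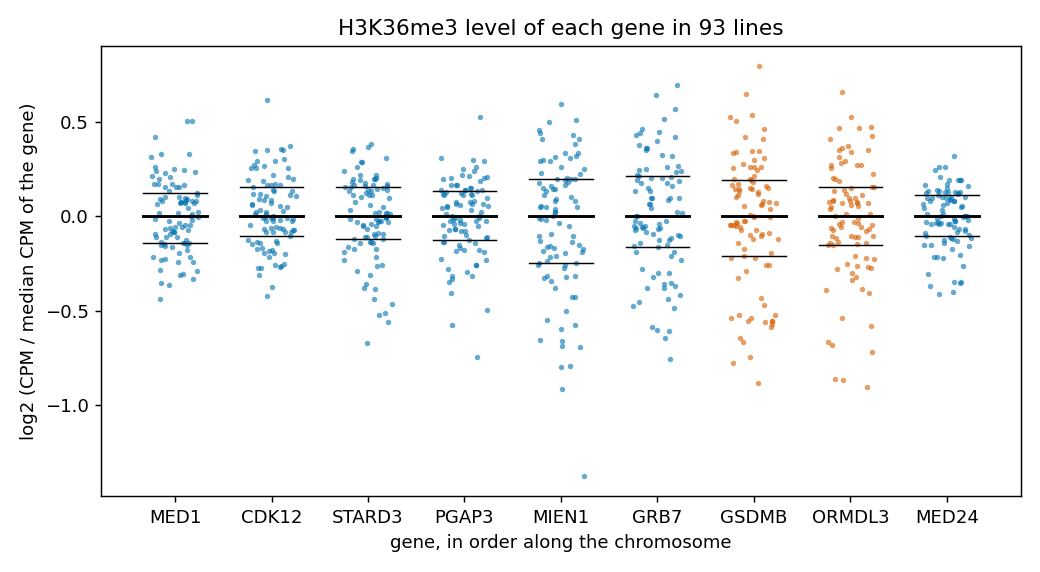
The log2 ratio of CPM to the gene's own median CPM in each of 93 lines, 1 point per line, with the median (thick line) and quartiles (thin lines). GSDMB and ORMDL3, in orange, run from 13.6 to 43.3 and from 12.5 to 36.97 CPM, a wider relative range than that of MED24, 64.9 to 108 CPM.

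The next question was which genes varied more between lines than features of like count do. The test compared each feature with the trended dispersion in edgeR, and its covariates were the log2 library total and the dynamic range. Dynamic range is how far, in log2 CPM, the middle of the strongest quintile of features stands above the middle of the weakest, with quintiles set by mean level over lines. GSDMB passed (adjusted p = 0.00177, edgeR goodness-of-fit test with Benjamini-Hochberg adjustment), and its own dispersion was 0.70 log2 above the trend. It was the only one of the 9 genes to pass, a smaller share than the 18.6% of all 13915 features tested. ORMDL3 did not pass, with a ratio of own to trended dispersion of 0.08 log2 (adjusted p = 0.788). Of all features tested, 85.5% had a lower ratio than GSDMB and 70.7% a lower one than ORMDL3. The other 7 genes lay below the trend, as did 67.96% of all features. MED24, at -2.29 log2, and MED1, at -2.11 log2, were among the least variable features for their count, with 1.24% and 2.46% of all features below them. Over the 9 genes the median ratio was -1.61 log2, and over all features tested it was -0.51 log2. Without covariates the ratio of GSDMB was 0.06 log2 and the call was lost (adjusted p = 0.875). Among the 47 deeper libraries the ratio was 0.64 log2, and the call was lost as well (adjusted p = 0.0556). Over the alternatives its adjusted p lay between 1.07e-07 and 0.875. None of the 9 genes was among the dispersion outliers of DESeq2, which took 1.74% of all features.

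GSDMB passed the test against neither technical measure. Its fitted slope was 0.04 log2 per SD of library total (adjusted p = 0.407) and 0.05 per SD of dynamic range (adjusted p = 0.25, edgeR quasi-likelihood test). Dynamic range was computed from the levels of these same features. Strongly marked features therefore tend to rise with it, and weakly marked ones to fall, by its definition. MED1 and CDK12 rose with dynamic range, by 0.18 and 0.17 log2 per SD (adjusted p = 2.4e-21 and 4.5e-20). MED24 rose by 0.08 and ORMDL3 by 0.07 (adjusted p = 3.1e-07 and 0.0477), so 4 of 9 genes rose with dynamic range, as did 44.5% of all features. GRB7 fell by 0.19 and PGAP3 fell by 0.10 (adjusted p = 4.9e-10 and 6.7e-06), 2 of 9 against 35.5% of all features. With library total 5 of 9 genes rose, namely STARD3, MED24, ORMDL3, MIEN1 and MED1, against 29.2% of all features, and 0 of 9 fell, against 35.8%. Library total and dynamic range together held 2.57% of the variance of GSDMB between lines and 16.8% of that of ORMDL3, against 70.1% for MED1 and 68.9% for CDK12.

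GSDMB and ORMDL3 rose and fell together across lines. After removing library total and dynamic range, Pearson's r was 0.701 (95% interval 0.58 to 0.792) and Spearman's rho was 0.637. Both had adjusted p = 0.00018 over 36 pairs of genes (unadjusted p = 1e-05, permutation test, two-sided, the smallest it can give). Without the 2 lines farthest from the median of GSDMB, r was 0.685. The 46 shallower libraries gave r = 0.708 (rho = 0.612) and the 47 deeper ones r = 0.715 (rho = 0.74), each with unadjusted p = 1e-05 (permutation test). Without the 2 farthest lines these r were 0.69 and 0.736. The residual levels of the pair were on the same side of 0 in 64 of 93 lines. The SD of residual log2 CPM was 0.34 for GSDMB and 0.29 for ORMDL3, and that of the difference between the 2 genes was 0.24. The ratio of GSDMB to ORMDL3 in CPM ran from 0.64 to 1.71 between lines with a median of 1.099, so the genes did not move in a fixed ratio.

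MED1 and CDK12 formed the other linked pair. Their r was 0.643 (95% interval 0.505 to 0.748), with rho = 0.606, r = 0.63 without the 2 farthest lines and adjusted p = 0.00018 (permutation test). The 46 shallower libraries gave r = 0.621 (rho = 0.594, adjusted p = 0.00018) and the 47 deeper ones r = 0.47 (rho = 0.487, adjusted p = 0.0167, permutation tests). MIEN1 and GRB7, also in adjacent rows, had r = 0.102 (95% interval -0.104 to 0.299, adjusted p = 0.42, permutation test), with rho = 0.0587 and r = 0.143 without the 2 farthest lines. The r of GSDMB and ORMDL3 exceeded that of MIEN1 and GRB7 by 0.599 (95% interval 0.371 to 0.827, jackknife over lines). It differed from that of MED1 and CDK12 by 0.0583 (-0.101 to 0.217), an interval that holds 0. The part played by counting error in the low r of MIEN1 and GRB7 was not tested, and it is largest in these 2 genes, as given above.

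**Figure D3:**
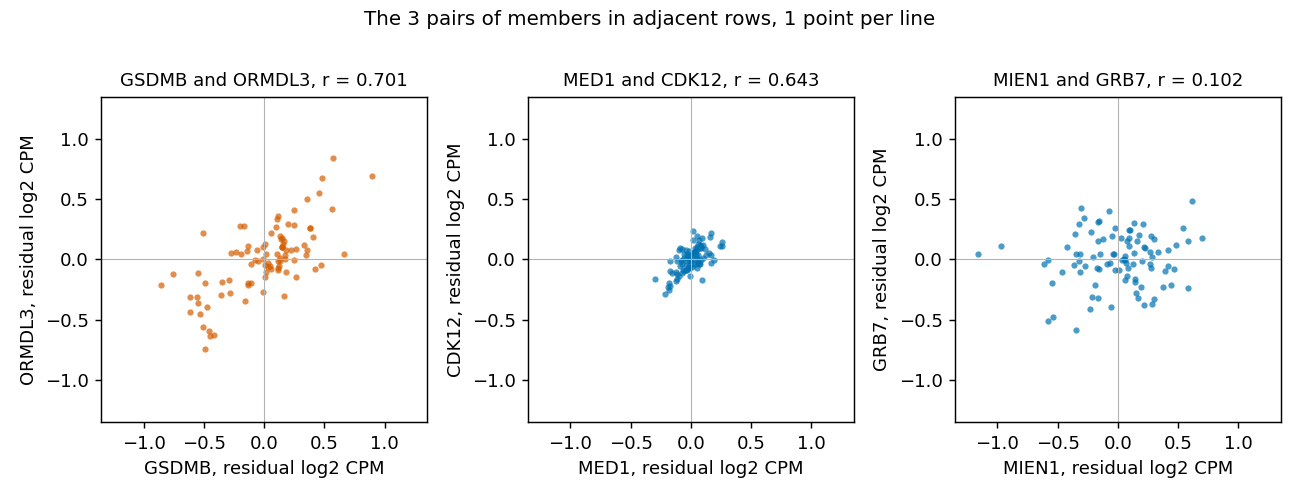
Residual log2 CPM after removing library total and dynamic range, 1 point per line (n = 93), for the 3 pairs of genes that stand in adjacent rows, all on the same scale. GSDMB and ORMDL3 (orange, r = 0.701) spread along a diagonal over a wide range. MED1 and CDK12 (r = 0.643) spread along one over a narrow range. MIEN1 and GRB7 (r = 0.102) form a cloud that is wider along MIEN1 (SD 0.34) than along GRB7 (SD 0.22).

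Correlation between adjacent rows is common in this table. Of all 13847 pairs of adjacent rows tested, 45.2% had r of at least 0.3, and their mean was 0.276 ± 0.293 (SD). Among the adjacent pairs 8.69% reached the r of GSDMB and ORMDL3, 11.8% that of MED1 and CDK12, and 71.4% that of MIEN1 and GRB7.

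With 10 principal components of all features removed, in place of library total and dynamic range, GSDMB and ORMDL3 kept r = 0.715 (rho = 0.757, adjusted p = 0.00036, permutation test). The pair of MED1 and CDK12 then had r = 0.464 (adjusted p = 0.00054). In this setting 4.62% of adjacent rows reached the r of GSDMB and ORMDL3, and 14.7% that of MED1 and CDK12. The 10 components held 84.3% of the variance of MED1 and 86.4% of that of CDK12, against 49.1% for ORMDL3 and 27.7% for GSDMB.

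The promoters of ORMDL3, MED1 and CDK12 are shown because these genes belong to the 2 linked pairs; GSDMB and GRB7 have no entry in the promoter table. Each runs from 250 bases before to 50 after the outer RefSeq start (GRCh38.p14), 5′ to 3′. Capitals mark matches on either strand to ACTACA followed by any 2 bases and TCCCA, the type of motif known for ZNF143, or to TCTCGCGA, the core of the motif known for BANP. Both motifs were chosen after the sequences had been read. The windows are chr17:39927552-39927851 (minus strand) for ORMDL3, chr17:39451214-39451513 (minus strand) for MED1 and chr17:39461236-39461535 (plus strand) for CDK12.
ORMDL3: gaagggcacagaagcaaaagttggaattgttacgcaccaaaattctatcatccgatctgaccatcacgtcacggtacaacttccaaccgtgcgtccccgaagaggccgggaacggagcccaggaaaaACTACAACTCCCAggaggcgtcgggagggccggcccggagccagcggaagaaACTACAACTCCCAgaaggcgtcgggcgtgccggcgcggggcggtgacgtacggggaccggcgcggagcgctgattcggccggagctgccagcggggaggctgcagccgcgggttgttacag
MED1: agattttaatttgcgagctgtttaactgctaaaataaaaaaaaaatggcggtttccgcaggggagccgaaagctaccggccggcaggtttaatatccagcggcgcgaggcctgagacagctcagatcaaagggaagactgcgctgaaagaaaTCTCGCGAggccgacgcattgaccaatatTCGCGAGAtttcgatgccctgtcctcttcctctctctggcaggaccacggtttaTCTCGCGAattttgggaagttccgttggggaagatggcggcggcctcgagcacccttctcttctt
CDK12: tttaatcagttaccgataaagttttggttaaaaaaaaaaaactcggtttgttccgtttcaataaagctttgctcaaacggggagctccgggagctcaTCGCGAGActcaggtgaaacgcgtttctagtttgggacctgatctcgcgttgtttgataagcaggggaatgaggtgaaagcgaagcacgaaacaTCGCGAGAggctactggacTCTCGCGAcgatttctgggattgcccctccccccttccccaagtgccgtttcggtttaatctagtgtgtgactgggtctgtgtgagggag
ORMDL3 held 2 matches to the first motif, and 1.36% of 34943 promoter windows hold any match to it. MED1 and CDK12, whose starts face away from each other, each held 3 matches to TCTCGCGA, and 1.14% of windows hold any match to it. The other 4 genes with an entry (STARD3, PGAP3, MIEN1 and MED24) held neither. A match is a run of letters and says nothing of binding.

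Beyond the adjacent pairs the stretch did not move as one block. The 36 pairs of the 9 genes had a mean r of 0.202, from -0.0801 for GRB7 and GSDMB to 0.701, and 4 pairs were below 0. All pairs of features at the same spacing in the table had a mean of 0.125. Of the 33 pairs not in adjacent rows, 7 had r of at least 0.3, a share near the 21.3% of all pairs of features 2 to 16 rows apart. The mean r of these 33 pairs was 0.177, above the mean of 0.104 over all pairs 2 to 16 rows apart. The test over lines called 12 of 36 pairs (adjusted p under 0.05, permutation test), 10 of them not adjacent. The lowest called r was 0.249, and 26.6% of all pairs 2 to 16 rows apart and 51.9% of adjacent ones reached it. By Spearman's rho 7 pairs were called.

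Of the 10 called pairs not in adjacent rows, CDK12 was in 4. It was called with PGAP3 (r = 0.371), MIEN1 (r = 0.345), ORMDL3 (r = 0.342) and MED24 (r = 0.311), with adjusted p from 0.00372 to 0.0098 (permutation tests). These had rho = 0.335, 0.241, 0.315 and 0.244, and r = 0.267, 0.28, 0.339 and 0.305 without the 2 farthest lines. By rho the calls with MIEN1 and with MED24 were lost (adjusted p = 0.0522 each, permutation tests). With 10 principal components removed, the r of CDK12 was 0.274 with PGAP3, 0.0188 with MIEN1 and 0.0761 with ORMDL3, and none of these 3 pairs was called. The 2 Mediator subunits, at opposite ends of the stretch and 16 rows apart, had r = 0.342 (rho = 0.281, adjusted p = 0.00444, permutation test; r = 0.287 without the 2 farthest lines). STARD3 and ORMDL3 had r = 0.322 (rho = 0.286, adjusted p = 0.00779, permutation test; r = 0.443 without the 2 farthest lines). STARD3 was also called with MIEN1 (r = 0.322, rho = 0.332, adjusted p = 0.00779; r = 0.344 without the 2 farthest lines) and with MED24 (r = 0.249, rho = 0.241, adjusted p = 0.0471; r = 0.349, permutation tests). PGAP3 was called with MIEN1 (r = 0.296, rho = 0.234, adjusted p = 0.0141; r = 0.217 without the 2 farthest lines) and with GSDMB (r = 0.256, rho = 0.25, adjusted p = 0.0425; r = 0.34, permutation tests). By rho the calls of STARD3 with MED24, of PGAP3 with MIEN1 and of PGAP3 with GSDMB were lost (adjusted p = 0.0522, 0.0586 and 0.052, permutation tests). Fewer of these links were called within the shallower or the deeper libraries alone, sets that hold fewer lines and still differ in depth. Among the 46 shallower libraries CDK12 was called with MIEN1 (r = 0.463) and with ORMDL3 (r = 0.432), while among the 47 deeper ones the only 2 pairs called were GSDMB with ORMDL3 and MED1 with CDK12. GRB7 was in no called pair.

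With 10 principal components removed, 4 pairs were called: GSDMB with ORMDL3, and the 3 pairs among MED1, CDK12 and MED24. MED1 and MED24 then had r = 0.305 (rho = 0.309, adjusted p = 0.0374) and CDK12 and MED24 r = 0.286 (rho = 0.305, adjusted p = 0.0486, permutation tests). In that setting 1 of the 33 pairs not in adjacent rows had r of at least 0.3, against 8.07% of all pairs 2 to 16 rows apart. Among adjacent pairs it was 2 of 3, against 30.5%. The mean r of the 36 pairs was then 0.0691, below the mean of 0.0853 over all pairs of features at the same spacing.

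**Figure D4:**
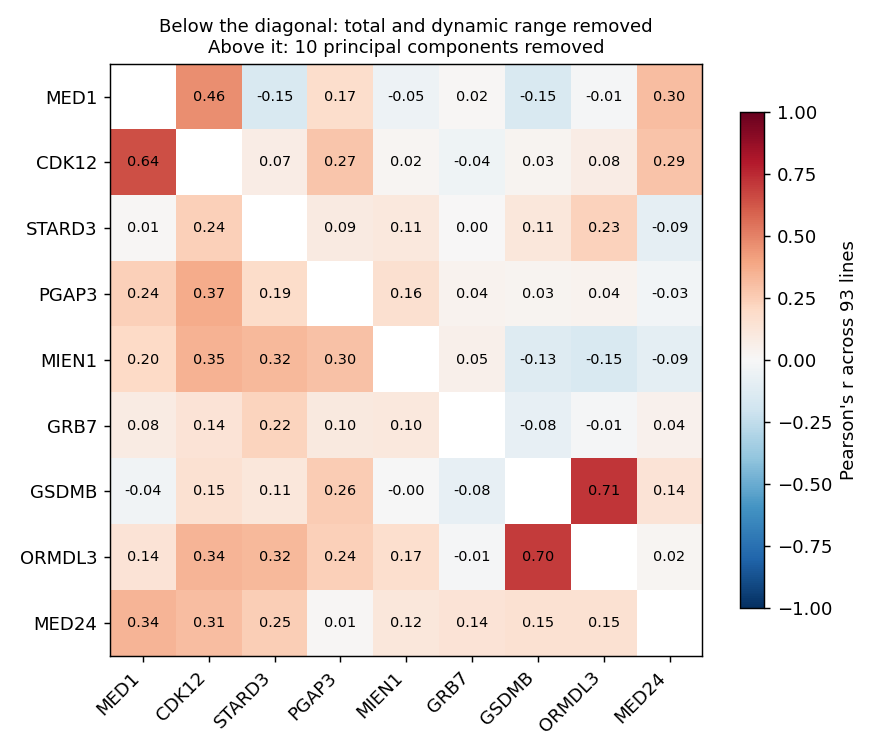
Pearson's r across 93 lines for each pair of the 9 genes, in order along the chromosome; below the diagonal with library total and dynamic range removed, above it with 10 principal components removed. GSDMB and ORMDL3 stand out on both sides (0.701 and 0.715), while the mean over all 36 pairs was 0.202 below and 0.0691 above.

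The links were then set against the whole table. Each feature was fitted on the standardised residual level of 1 gene with edgeR's quasi-likelihood test, so that every gene could be compared with 13914 others. In the fit on ORMDL3, the feature with the smallest p was GSDMB, which rose by 0.24 log2 per SD of ORMDL3 (adjusted p = 1.3e-10). Without the 10 shallowest libraries GSDMB ranked 2 by p (adjusted p = 9.05e-09), and over the alternatives its adjusted p lay between 1.3e-10 and 0.000429. In the fit on GSDMB, it was ORMDL3, which rose by 0.19 log2 per SD (adjusted p = 2.9e-10). By Pearson's r each was likewise the closest of 13914 features to the other. The next closest to ORMDL3 was ENSG00000135148.12 (r = 0.585) and to GSDMB ENSG00000120265.18 (r = 0.484), over 93 lines; they stand 2423 and 6254 rows away and have no name in the sources used here. CDK12 ranked 11 among the features closest to MED1, and MED1 ranked 32 among those closest to CDK12.

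The genes differed in how much of the table followed them. With ORMDL3, 23% of features rose and 20.3% fell, while with GSDMB 1.89% rose and 1.52% fell. Of the 8 other genes of the stretch, 4 rose with ORMDL3: GSDMB, STARD3 (0.05 log2 per SD, adjusted p = 0.00492), PGAP3 (0.04, adjusted p = 0.0334) and CDK12 (0.04, adjusted p = 0.0064, edgeR quasi-likelihood test). PGAP3 lost its call with DESeq2 size factors (adjusted p = 0.0673), without covariates (0.058) and in the shallower and deeper sets (0.318 and 0.37, same test). STARD3 lost it in both sets (0.135 and 0.153). CDK12 lost it without covariates (0.1003) and among the 47 deeper libraries, where its slope was -0.00083 (0.976). ORMDL3 was the 1 gene of the stretch that rose with GSDMB. The median change over the 8 genes was 0.04 log2 per SD of ORMDL3 and 0.02 per SD of GSDMB, against 0.01 and 0.00 over all features. With 5 or with 10 principal components as covariates, 1 feature was called in the fit on ORMDL3 and 1 in the fit on GSDMB, and in each case it was the other gene of the pair.

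Fits on the remaining genes gave 0 to 5 calls within the stretch. With CDK12, 5 of 8 other genes rose, against 27.4% of all features, and with PGAP3 4 of 8, against 10.8%. With MIEN1 3 of 8 rose (19.3% of all features) and with MED1 2 of 8 (15.6%). With STARD3 and with MED24 1 of 8 rose (6.03% and 5.53%). In these fits 0 of 8 genes fell, against 17.7% of all features with CDK12, 12.5% with PGAP3, 17.7% with MIEN1, 5% with MED1, 3.76% with STARD3 and 1.81% with MED24. In the fit on GRB7, 0 of 13914 features were called with edgeR's quasi-likelihood test, with 879 at an unadjusted p under 0.05. Counting error alone would give 50.2% of the residual variance of GRB7, the largest share among the 9 genes. Its part in this result was not tested, and the fit on GRB7 was run with no other tool or setting.

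**Figure D5:**
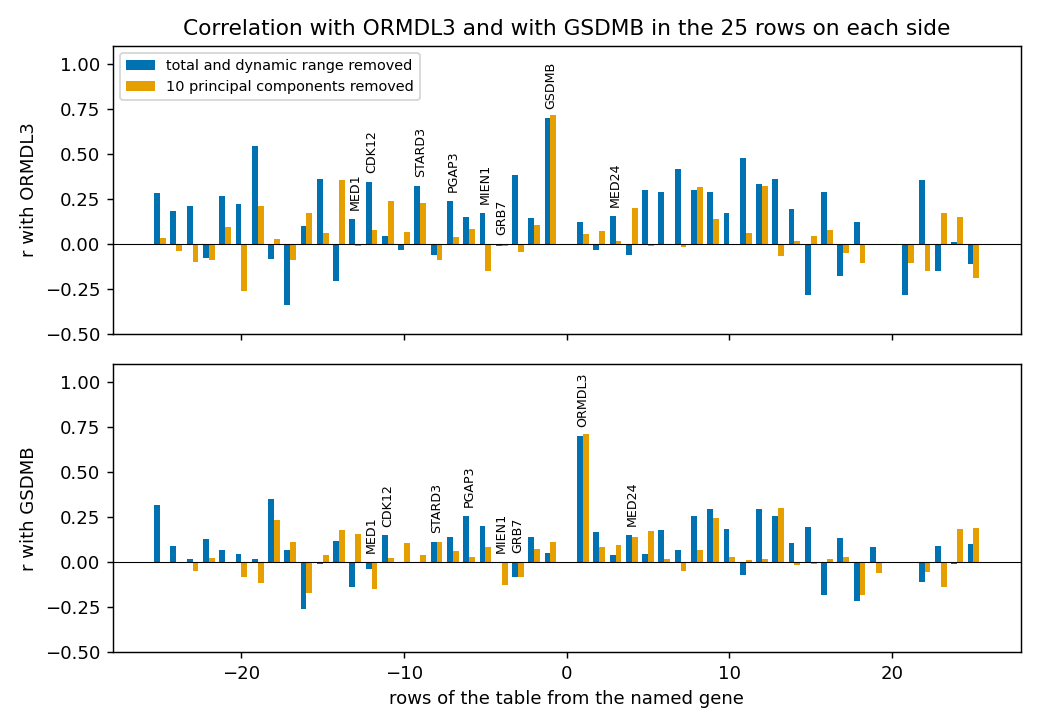
Pearson's r with ORMDL3 (top) and with GSDMB (bottom) of the features up to 25 rows away on each side, over 93 lines, with library total and dynamic range removed (blue) or 10 principal components removed (orange); the 9 genes are named. The highest r beside that of the pair was 0.541 for ORMDL3 and 0.352 for GSDMB in blue, and 0.356 and 0.3 in orange, against 0.701 and 0.715 for the pair.

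The deposited normal scores carried the same pattern for the pair. Across lines, the score of each gene had a Pearson correlation with its log2 CPM of 0.951 (MED24) to 0.973. On the scores GSDMB ran from -2.51 to 2.16 and ORMDL3 from -2.53 to 2.15 between lines, and their r was 0.641 (adjusted p = 9e-05, permutation test). MED1 and CDK12 had r = 0.81 on the scores, from which library total and dynamic range were not removed.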

How the data were processed

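H3K36me3 CUT&Tag reads of 93 libraries were counted per feature by the authors and deposited as whole-number counts, with normal scores beside them. In the deposited score table the sorted values are the same in every library. The submitters' processing notes list HISAT2 2.2.1, bedtools and hg38 without saying what each was used for, and no source used here gives the counted interval. Libraries were amplified with 14 PCR cycles, per the labels' protocols, so counting error understates the error of a count.

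Counts were scaled with TMM (factors 0.916 to 1.05) in edgeR 4.0.16 under R 4.3.3; log2 CPM had a prior count of 2. Tests covered the 13915 features that reached 10 counts in 47 or more libraries, with Benjamini-Hochberg adjustment over all of them at 0.05. Correlations used residuals of log2 CPM and 100000 permutations of lines (numpy 2.4.6, scipy 1.17.1, Python 3.11.15), with Benjamini-Hochberg adjustment over 36 pairs. The scripts were tested on simulated data. Names of the 9 genes came with the list; coordinates and promoters came from RefSeq by symbol, where 9 and 7 of 9 matched. Of the 14000 identifiers 0 matched the RefSeq table, so 5 lists of related genes and the cell type markers were not used, and of the 3 features most like ORMDL3 and GSDMB only the first is given. The genes and lists were chosen with earlier results of these data known. As alternatives, size factors and dispersion outliers of DESeq2 1.42.0 were used, and no filter, a prior count of 0.5, other covariates, fewer libraries, thinned counts and the deposited scores were tried. Each line has 1 library, so the spread between lines on which the p-values rest holds technical spread too. The goodness-of-fit p measures how far a feature departs from the trend of features of like count.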

Additional observations from a re-analysis of the deposited data

How the results depend on the processing

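The correlation of GSDMB and ORMDL3 stayed positive and past the threshold under 12 alternatives, with r from 0.54 to 0.715, and that of MED1 and CDK12 under 11, with r from 0.426 to 0.889. Among these alternatives, dropping the low-count filter could not change r, since the residual levels were computed before it was applied. Thinning to the smallest total and removing the other 7 genes (r = 0.705) were alternatives added with the data in view. Removing the other 7 genes was judged by its unadjusted p from the permutation test. The count of called pairs, 12, was 19 without covariates, 6 and 4 with 5 and 10 principal components, 5 and 2 in the shallower and deeper libraries and 5 after thinning. The mean r of the 36 pairs, 0.202, was 0.0899 and 0.0691 with 5 and 10 components, 0.085 in the deeper libraries, 0.127 after thinning and 0.127 on the scores. Features called in the fit on ORMDL3, 6018, numbered 1 with 5 and 1 with 10 components, 2592 among shallower libraries and 592 among deeper ones. In the fit on GSDMB, 474 features were called, against 251 with DESeq2 size factors, 764 without covariates, 306 without the 10 shallowest libraries, and 1 each with 5 components, with 10 components, in each of the shallower and deeper sets. Variable features numbered 2586, and 242 by DESeq2's dispersion outliers. Smaller sets of libraries hold fewer samples by construction. The cause of these changes was not tested. No paired analysis was possible because all 93 libraries belong to a single group. MIEN1 and GRB7 had few counts, with 12 and 20 in the library where each was lowest. The part played by depth was not tested.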

Other observations

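The 8 rows of the table that lie between MED1 and MED24 and have no name here also had links to single genes. The row right after GRB7 had a median of 314 CPM and r = 0.588 with CDK12, 0.501 with MIEN1, 0.385 with ORMDL3 and 0.143 with GSDMB. The row between PGAP3 and MIEN1 had a median of 58.1 CPM and r = 0.509 with PGAP3 and 0.424 with MIEN1. These r are over 93 lines with library total and dynamic range removed, the libraries are shared by all of them, and the rows were picked after their values had been seen.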
